A study of Mus musculus with 8 samples.

Results

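Hepatocytes that line the central vein of the liver lobule express a set of genes that depend on Wnt signalling, and 10 of these genes were followed here in mouse liver: Glul, Slc1a2, Oat, Rhbg, Cyp2e1, Cyp1a2, Axin2, Lgr5, Tbx3 and Lect2. They were taken by gene symbol from a table of 17164 genes. All 10 were present and all 10 passed the expression filter, an FPKM (fragments mapped to a gene, scaled for its length and for the size of the library) of at least 1 in at least 2 libraries, as did 11606 genes in all. The rule is a list of names and uses no measured value, but the names were chosen with earlier results of these data known.

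RNA sequencing of whole liver from male C57BL/6 mice gave 8 libraries, 2 in each of 4 groups. In the DEN+CCl4 group, mice 2 weeks old were injected intraperitoneally with diethylnitrosamine (DEN, 0.67%), a hepatocyte carcinogen. From the age of 8 weeks they were also given repeated injections of the hepatotoxin carbon tetrachloride (CCl4, 20%, dissolved in olive oil), and livers were taken at 22 weeks. DWYG-M and DWYG-H mice had both agents and, starting at 17 weeks, DWYG (Diwu Yanggan capsules, a herbal preparation) at 1 or 2 multiples of the clinical equivalent dose. In control mice saline replaced DEN, and no CCl4 is listed for them. Livers of all 4 groups, controls included, were taken at 22 weeks. Each library came from 1 of 2 livers drawn at random from the 6 mice of its group. The labels do not say whether a piece of liver held tumour nodules, and all 3 model groups carry the same carcinogen and toxin.

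In the liver lobule, endothelial cells of the central vein secrete the ligands Wnt2 and Wnt9b together with R-spondin 3, which keeps Wnt receptors on the cell surface. Nearby hepatocytes stabilise beta-catenin in response, and beta-catenin with TCF factors activates genes of glutamine synthesis, ammonia uptake and xenobiotic metabolism. Periportal hepatocytes, at the other end of the lobule, express genes of urea synthesis and gluconeogenesis in their place.

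Library depth lay between 17345627 and 19191382 expected counts. Replicate libraries correlated across genes at 0.978 to 0.984 in DWYG-M, DWYG-H and control and at 0.961 in DEN+CCl4. The values for DEN+CCl4 replicate 1 against the 4 DWYG libraries were 0.963 to 0.976, above the value of that replicate against DEN+CCl4 replicate 2. Alb, the albumin gene and a defining marker of hepatocytes, ranged from 29953 to 60316 FPKM over the 8 libraries. Counts of major urinary protein genes took 0.563% to 3.50% of a library in the 3 model groups and 15.3% and 15.4% in controls.

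The promoters of the 4 genes that were lower in DEN+CCl4 livers by test (Glul, Slc1a2, Oat and Cyp2e1), of Cyp1a2, and of Lect2, whose level was close to that of controls, are printed to show which hold the core letters read by TCF factors. Each line gives the 250 bases upstream of the start of the gene, 5′ to 3′ on the gene's own strand, from the RefSeq promoter table of build GRCm38.p6. Capitals mark CTTTGA or its reverse complement TCAAAG.
Glul, chr1:153899679-153899928, plus strand: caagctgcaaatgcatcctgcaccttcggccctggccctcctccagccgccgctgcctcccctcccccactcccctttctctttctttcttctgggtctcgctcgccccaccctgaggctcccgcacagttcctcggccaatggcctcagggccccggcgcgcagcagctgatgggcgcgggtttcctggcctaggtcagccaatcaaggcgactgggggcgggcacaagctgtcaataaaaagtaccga
Slc1a2, chr2:102706188-102706437, plus strand: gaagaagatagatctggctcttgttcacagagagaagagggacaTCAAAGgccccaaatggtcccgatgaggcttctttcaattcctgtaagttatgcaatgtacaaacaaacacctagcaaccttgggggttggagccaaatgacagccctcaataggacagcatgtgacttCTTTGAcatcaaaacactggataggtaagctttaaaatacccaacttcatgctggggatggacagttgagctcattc
Oat, chr7:132576399-132576648, minus strand: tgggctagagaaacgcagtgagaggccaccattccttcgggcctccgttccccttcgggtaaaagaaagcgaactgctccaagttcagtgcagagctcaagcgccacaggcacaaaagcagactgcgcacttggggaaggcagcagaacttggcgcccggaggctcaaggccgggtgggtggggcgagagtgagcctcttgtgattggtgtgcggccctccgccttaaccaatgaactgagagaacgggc
Cyp2e1, chr7:140763569-140763818, plus strand: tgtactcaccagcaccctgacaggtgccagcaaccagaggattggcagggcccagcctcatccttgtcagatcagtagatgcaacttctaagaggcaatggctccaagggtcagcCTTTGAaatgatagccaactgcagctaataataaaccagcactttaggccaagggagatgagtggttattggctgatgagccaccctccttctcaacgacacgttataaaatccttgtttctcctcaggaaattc
Cyp1a2, chr9:57683656-57683905, minus strand: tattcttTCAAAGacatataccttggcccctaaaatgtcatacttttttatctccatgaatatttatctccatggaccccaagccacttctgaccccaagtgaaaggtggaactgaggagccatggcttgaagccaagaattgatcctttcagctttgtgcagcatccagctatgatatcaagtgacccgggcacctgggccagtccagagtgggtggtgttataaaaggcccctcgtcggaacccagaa
Lect2, chr13:56548539-56548788, minus strand: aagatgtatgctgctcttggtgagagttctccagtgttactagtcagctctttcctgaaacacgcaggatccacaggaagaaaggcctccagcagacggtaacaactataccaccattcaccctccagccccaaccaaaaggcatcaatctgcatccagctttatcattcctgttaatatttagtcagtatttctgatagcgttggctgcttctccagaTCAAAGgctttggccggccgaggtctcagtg

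Of the 10 genes, 7 were in the promoter table, and Lgr5, Rhbg and Tbx3 were not. CTTTGA, searched on both strands, was found in 4 of the 7. The Slc1a2 window held it 2 times, with first bases 206 and 77 bases before the start. In Cyp2e1 the match began 135 bases upstream, in Cyp1a2 243 bases upstream and in Lect2 31 bases upstream. The longer CTTTGAT, which contains CTTTGA, was found in Slc1a2 and Lect2. Among all 32851 promoters of the same length, 13.8% held CTTTGA and 3.2% held CTTTGAT. The windows of Glul, Oat and Axin2 held neither. TATAAA, searched on both strands and present in 12.4% of all promoters, was found 31 bases upstream in Cyp2e1 and 29 bases upstream in Cyp1a2. These matches describe the letters of the windows. A match to CTTTGA was found for Slc1a2 and Cyp2e1, both called lower in DEN+CCl4 livers, and for Cyp1a2 and Lect2, which were not called. None was found for Glul and Oat, both called lower, or for Axin2, which was not called. Sequence outside the windows was not searched, and whether a match goes with the change of a gene was not tested.

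The comparison of DEN+CCl4 with control livers asked what the tumour model did to the pericentral genes. Of the 10, 4 fell and 0 rose, at an adjusted p under 0.05 in edgeR's quasi-likelihood test over all 11606 genes. Slc1a2 fell the furthest, to 0.0639 of the control level, and Glul, Oat and Cyp2e1 each fell to between 0.161 and 0.174. Over all tested genes 22.2% were called in this comparison, 15.1% higher and 7.12% lower. The log2 fold change was below 0 for 9 of the 10, with a median of -1.57, against -0.01 over all genes tested. The 10 genes together took 0.313% and 0.148% of all counts in the DEN+CCl4 libraries and 0.945% and 1.08% in controls. In DWYG-M they took 0.440% and 0.735%, and in DWYG-H 0.398% and 0.485%. Most of this share was Cyp2e1, at 0.216% and 0.0977% in DEN+CCl4 and 0.662% and 0.789% in controls. In whole liver, fewer cells of a type and less RNA per cell cannot be told apart.

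**Figure D1:**
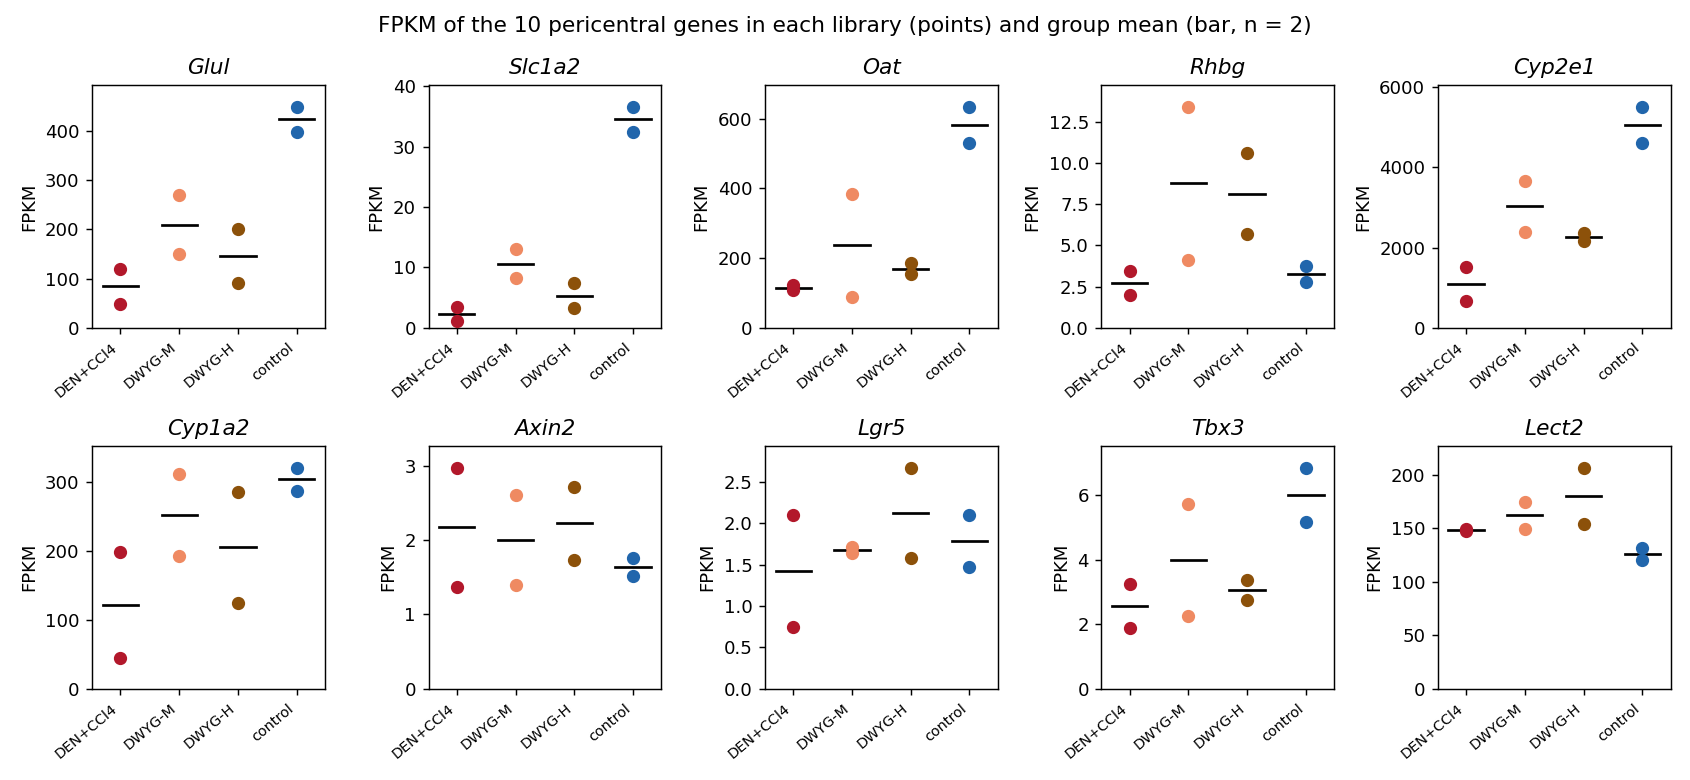
FPKM of each of the 10 pericentral genes (y axes, linear, from 0) in the DEN+CCl4, DWYG-M, DWYG-H and control groups. Each point is 1 library and each bar is the mean of 2. For Glul, Slc1a2, Oat and Cyp2e1 both control points lie above all 6 points of the other groups.

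Glul, Slc1a2, Oat and Rhbg handle ammonia, glutamine and related amino acids. Glul (Entrez 14645) encodes glutamine synthetase, which joins ammonia to glutamate in the last hepatocytes before the central vein. Its level was 119 and 49.2 FPKM in DEN+CCl4 livers, 149 and 270.3 in DWYG-M, 91.9 and 201 in DWYG-H, and 448 and 399 in controls. Every control library was above every other library, and DEN+CCl4 overlapped DWYG-H but not DWYG-M. The log2 fold change of DEN+CCl4 against control was -2.64 (SE 0.496, adjusted p = 0.00947), and Glul was still called without either DEN+CCl4 library (-3.26 without replicate 1 and -2.20 without replicate 2).

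Slc1a2 (Entrez 20511) encodes a glutamate transporter of the plasma membrane, which supplies the substrate of glutamine synthetase. It measured 3.39 and 1.17 FPKM in DEN+CCl4 livers, 8.18 and 12.99 in DWYG-M, 3.25 and 7.36 in DWYG-H, and 36.6 and 32.5 in controls. Controls stood apart from all other libraries, and both DWYG-M libraries stood above both DEN+CCl4 libraries. Its log2 fold change in DEN+CCl4 against control was -3.97 (SE 0.525, adjusted p = 0.00253), and -5.01 without DEN+CCl4 replicate 1 and -3.37 without replicate 2, with the call kept in both.

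Oat (Entrez 18242) encodes the mitochondrial enzyme ornithine aminotransferase, which turns ornithine towards glutamate. Its FPKM was 123 and 108 in DEN+CCl4 livers, 89.9 and 383 in DWYG-M, 154 and 186 in DWYG-H, and 531 and 634 in controls. Controls were again above all other libraries, and DWYG-M held both the lowest value of all and the highest outside the controls, 4.26-fold apart. In DEN+CCl4 against control Oat had a log2 fold change of -2.61 (SE 0.576, adjusted p = 0.0171). Its call was lost without DEN+CCl4 replicate 1 (log2 fold change -2.59, adjusted p = 0.052), DEN+CCl4 replicate 2 (-2.61, 0.073) or control replicate 2 (-2.45, 0.0773).

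Rhbg (Entrez 58176) encodes an ammonia channel of the basolateral membrane. It had 3.45 and 1.99 FPKM in DEN+CCl4 livers, 4.13 and 13.4 in DWYG-M, 5.70 and 10.6 in DWYG-H, and 2.81 and 3.76 in controls. Unlike the other genes of ammonia handling, its DEN+CCl4 and control values overlapped (log2 fold change -0.60, SE 0.571, adjusted p = 0.498), and all 4 DWYG values lay above both groups. That fold change was -0.90 without DEN+CCl4 replicate 1 and -0.34 without replicate 2. Its counts were low, between 58 and 368 reads per library.

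Cyp2e1 (Entrez 13106) and Cyp1a2 (Entrez 13077) encode cytochrome P450 enzymes of drug and toxin metabolism, and CYP2E1 is the main enzyme that converts CCl4 to its reactive radical. Cyp2e1 measured 1506 and 678 FPKM in DEN+CCl4 livers, 2396 and 3667 in DWYG-M, 2169 and 2355 in DWYG-H, and 4615 and 5500.2 in controls. The 4 groups were ordered with DEN+CCl4 lowest, then DWYG-H, DWYG-M and control, and no library overlapped a library of another group. The log2 fold change of Cyp2e1 in DEN+CCl4 against control was -2.52 (SE 0.396, adjusted p = 0.00479), and its call stood without any 1 of the 4 libraries (adjusted p up to 0.0329).

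Cyp1a2 had 199 and 44.0 FPKM in DEN+CCl4 livers, 193 and 313 in DWYG-M, 124 and 286 in DWYG-H, and 287 and 321 in controls. Both DEN+CCl4 values were below both control values, but they differed 4.52-fold from each other. The log2 fold change of -1.66 (SE 0.626) missed the threshold (adjusted p = 0.096). Without DEN+CCl4 replicate 1 it was -2.95 (adjusted p = 0.0105), and without replicate 2 it was -0.99 (adjusted p = 0.237), so 1 library decides this value.

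Axin2 and Lgr5 belong to the Wnt pathway itself. Axin2 (Entrez 12006), a scaffold of the complex that degrades beta-catenin and a feedback target of Wnt signalling in many tissues, measured 2.98 and 1.37 FPKM in DEN+CCl4 livers, 1.40 and 2.61 in DWYG-M, 1.74 and 2.72 in DWYG-H, and 1.52 and 1.76 in controls. Lgr5 (Entrez 14160), a receptor for R-spondins, measured 2.10 and 0.75 FPKM in DEN+CCl4 livers, 1.71 and 1.64 in DWYG-M, 1.58 and 2.67 in DWYG-H, and 2.10 and 1.47 in controls. All groups overlapped for both genes. Against control, the DEN+CCl4 log2 fold change was 0.12 for Axin2 (95% interval -0.80 to 1.04) and -0.63 for Lgr5 (-1.58 to 0.33), with adjusted p-values of 0.861 and 0.315. Lgr5 passed the threshold when DEN+CCl4 replicate 1 was left out (-1.40, adjusted p = 0.0326) and was -0.13 without replicate 2. Both genes rested on few counts, 101 to 216 reads per library for Axin2 and 63 to 218 for Lgr5.

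Tbx3 (Entrez 21386), a T-box transcription factor, had 1.87 and 3.24 FPKM in DEN+CCl4 livers, 2.25 and 5.73 in DWYG-M, 2.76 and 3.38 in DWYG-H, and 5.18 and 6.85 in controls. The control values were above both DEN+CCl4 values, and DWYG-M reached into the control range. Its log2 fold change of -1.49 in DEN+CCl4 against control (SE 0.465, adjusted p = 0.0548) was just outside the threshold, and DESeq2 called it (adjusted p = 0.00571). With edgeR it was -1.05 without DEN+CCl4 replicate 1 (adjusted p = 0.173) and -2.07 without replicate 2 (adjusted p = 0.0505).

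Lect2 (Entrez 16841) encodes a protein secreted by hepatocytes. It was at 148 and 149 FPKM in DEN+CCl4 livers, 149 and 175 in DWYG-M, 207 and 154 in DWYG-H, and 121 and 131 in controls. In FPKM every model library was above both controls, yet edgeR, which scales libraries to their common genes, gave -0.02 for DEN+CCl4 against control (95% interval -0.49 to 0.44, adjusted p = 0.946). The sign turned with the tool and unit: limma gave 0.23 on log2(FPKM + 1) and 0.56 on log2(TPM + 1), with adjusted p-values of 0.391 and 0.033. TPM scales the transcripts of every library to the same total. The median of all tested genes itself stood at 0.21 in FPKM and 0.50 in TPM, close to the values of Lect2.

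Groups that did not overlap in FPKM were counted for all genes as well. For 6 of the 10 pericentral genes both DEN+CCl4 values were below both control values, against 11.9% of all tested genes, and for 1, Lect2, both were above, against 47.1%. DEN+CCl4 replicate 2 was the lowest of the 8 libraries for 7 of the 10 genes. The share of all tested genes that were lowest in that library was not computed.

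**Figure D2:**
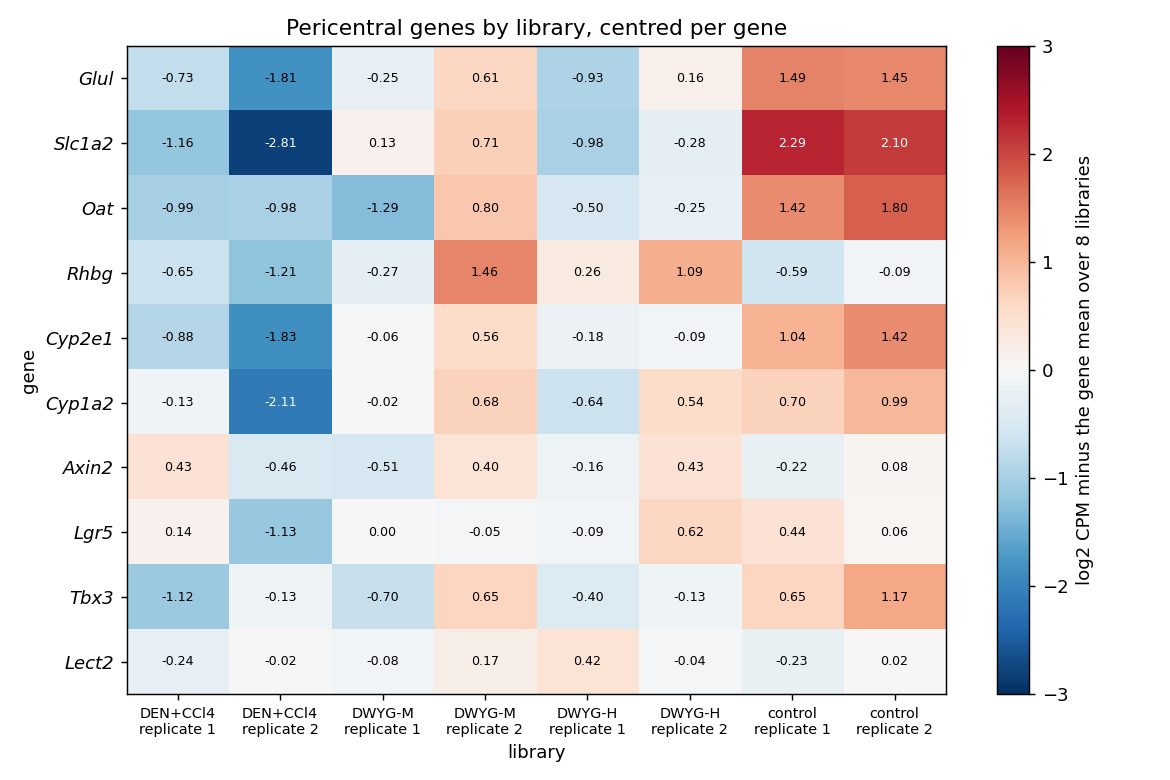
Log2 CPM (counts scaled to library size) of each gene in each library, minus that gene's mean over the 8 libraries, in log2 units (rows are genes, columns are libraries, red is above and blue below the mean). Slc1a2 spans -2.81 in DEN+CCl4 replicate 2 to 2.29 in control replicate 1, whereas Lect2 stays between -0.24 and 0.42.

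The DWYG comparisons asked whether the preparation changed these genes in mice that had received DEN and CCl4. In DWYG-M livers against DEN+CCl4 livers, 0 of the 10 genes were called by edgeR. The background was 0.00862% of genes called, a single gene of 11606, the steroid reductase Hsd3b5, which is named here because it was the sole call (log2 fold change 4.50, adjusted p = 0.0065). At an unadjusted p under 0.05 there were 4 pericentral genes and 1468 genes in all, and DESeq2 called 4 pericentral genes and 206 genes in all. The log2 fold change was above 0 for 9 of the 10 genes, with a median of 1.13, against -0.02 over all genes tested. The genes with an unadjusted p under 0.05 were Slc1a2 at 2.22 (SE 0.493, adjusted p = 0.213), Rhbg at 1.77 (SE 0.559, adjusted p = 0.294), Cyp2e1 at 1.56 (SE 0.383, adjusted p = 0.231) and Glul at 1.42 (SE 0.476, adjusted p = 0.306). These are also the 4 genes that DESeq2 called. For 5 of the 10 both DWYG-M values were above both DEN+CCl4 values (13.5% of all tested genes), namely the same 4 and Lect2, and for 0 were both below (25.6% of all tested genes). The other log2 fold changes, all with an adjusted p of at least 0.459, were 1.18 for Cyp1a2, 1.09 for Oat, 0.68 for Tbx3, 0.33 for Lgr5, 0.17 for Lect2 and -0.04 for Axin2.

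Single libraries moved these DWYG-M values widely. Slc1a2 passed edgeR's threshold without DEN+CCl4 replicate 1 (3.28, adjusted p = 0.046), but was 1.62 without DEN+CCl4 replicate 2 (adjusted p = 0.263), 2.48 without DWYG-M replicate 1 (adjusted p = 0.298) and 1.9 without DWYG-M replicate 2 (adjusted p = 1). Without DEN+CCl4 replicate 1 and without replicate 2, Glul was 2.05 and 0.97, Cyp2e1 2.12 and 1.16, Cyp1a2 2.48 and 0.50, and Rhbg 2.09 and 1.51. Without DWYG-M replicate 2, Rhbg was 0.65, Glul 0.92 and Oat -0.31. None of these values other than that of Slc1a2 without DEN+CCl4 replicate 1 was called.

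In DWYG-H livers against DEN+CCl4 livers, edgeR called 0 of the 10 genes and 0 genes in all, a background of 0%. At an unadjusted p under 0.05 there were 3 pericentral genes and 985 genes in all, and DESeq2 called 1 pericentral gene, Cyp2e1, and 120 genes in all. All 10 log2 fold changes were above 0, with a median of 0.77, against -0.01 over all genes tested. Rhbg was at 1.67 (SE 0.559, adjusted p = 0.476), Slc1a2 at 1.17 (SE 0.484, adjusted p = 0.574) and Cyp2e1 at 1.14 (SE 0.379, adjusted p = 0.472). For 4 of the 10, namely Cyp2e1, Oat, Rhbg and Lect2, both DWYG-H values were above both DEN+CCl4 values (10.6% of all tested genes). Glul stood at 0.89, Cyp1a2 at 0.87, Lgr5 at 0.67, Oat at 0.61, Lect2 at 0.33, Tbx3 at 0.29 and Axin2 at 0.11. With 1 library left out in turn, the values ranged from 0.57 to 2.23 for Slc1a2, 0.24 to 1.52 for Glul, 0.16 to 2.17 for Cyp1a2, 0.17 to 1.46 for Lgr5, 0.74 to 1.69 for Cyp2e1 and 1.19 to 2.04 for Rhbg, and 0 of the 10 genes were called. Slc1a2, Cyp1a2, Glul, Lgr5 and Cyp2e1 were each highest without DEN+CCl4 replicate 1. The DEN+CCl4 libraries enter both of these comparisons and the one with control, so a low DEN+CCl4 value shifts all of them and they are not independent of each other.

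**Figure D3:**
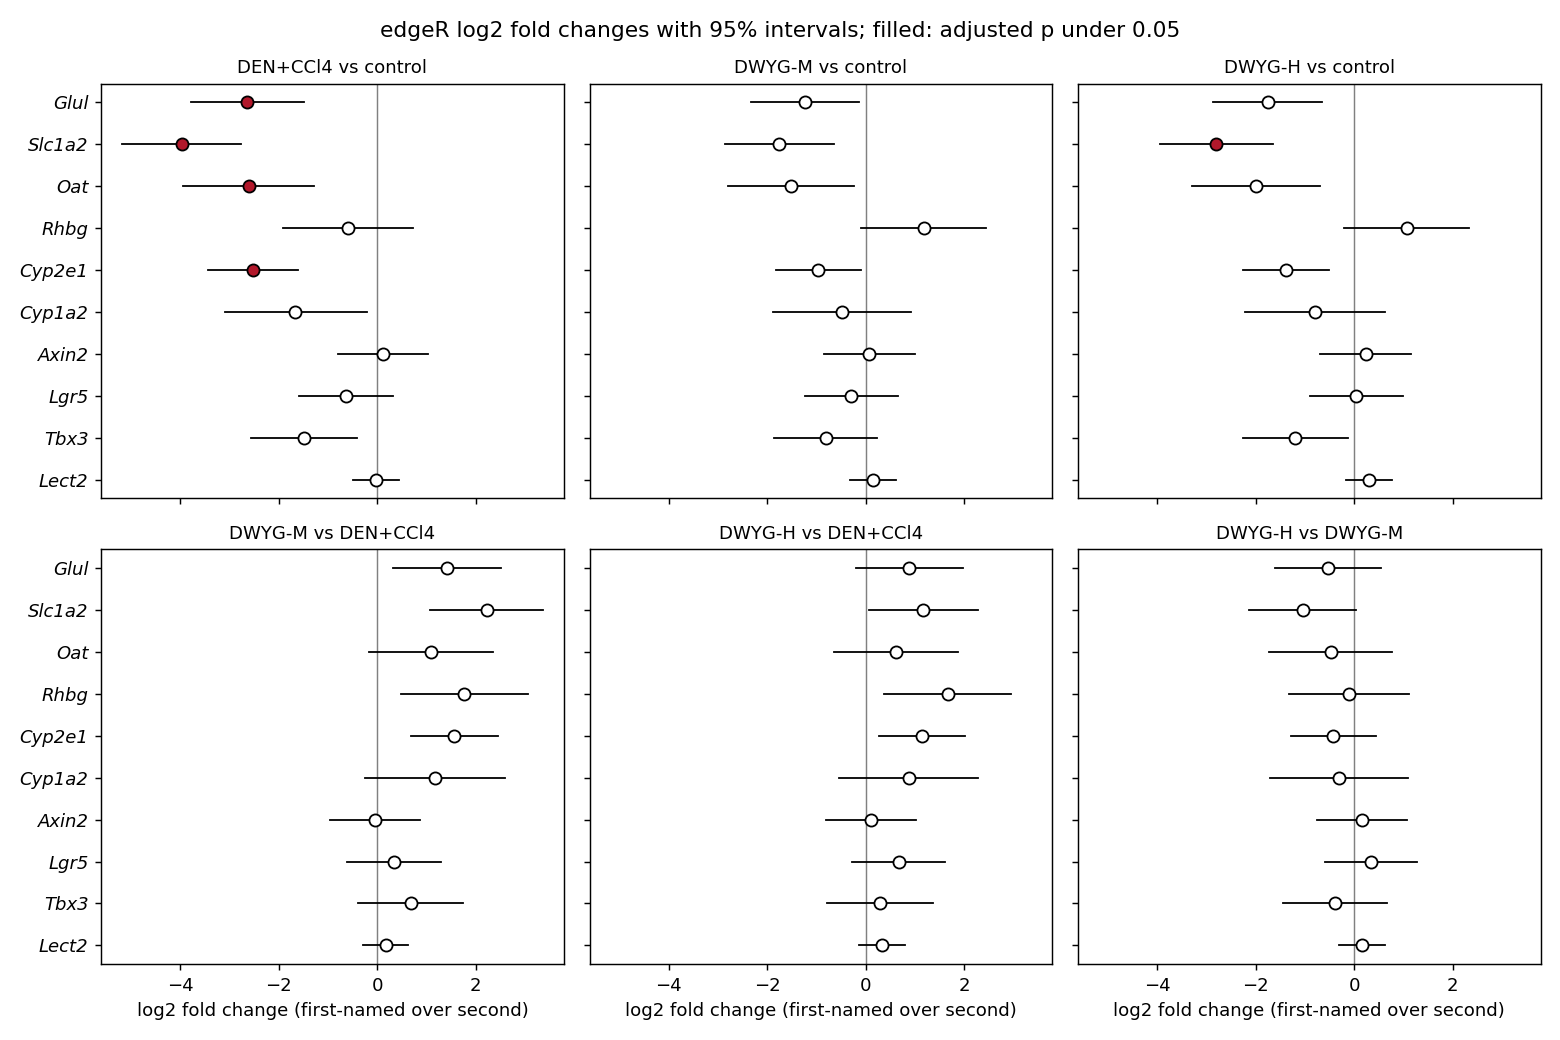
Log2 fold changes from edgeR with 95% intervals (x axes) for the 10 genes (rows) in 6 comparisons, the first-named group over the second. Filled points passed an adjusted p of 0.05: 4 genes in DEN+CCl4 vs control and Slc1a2 in DWYG-H vs control.

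In DWYG-H against DWYG-M, the high against the medium dose, edgeR called 0 of the 10 genes and 0 genes in all (0%), and every pericentral gene had an adjusted p of 1. There were 0 pericentral genes and 193 genes in all at an unadjusted p under 0.05, and DESeq2 called 0 and 5. The median log2 fold change was -0.35, against -0.0017 over all genes tested. Slc1a2 stood at -1.04 (95% interval -2.13 to 0.046), Glul at -0.53 (-1.61 to 0.55), Cyp2e1 at -0.42 (-1.29 to 0.44) and Rhbg at -0.10 (-1.32 to 1.11). Oat was at -0.48, Tbx3 at -0.39, Cyp1a2 at -0.31, Axin2 at 0.16, Lect2 at 0.16 and Lgr5 at 0.34. For Cyp2e1 and Slc1a2 both DWYG-H values were below both DWYG-M values (13.5% of all tested genes). No difference between the doses was detectable with these libraries, and the intervals do not show that the doses acted alike.

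Against controls, 0 of the 10 genes were called in DWYG-M livers (4.95% of all genes called, 4.35% higher and 0.603% lower), with 4 at an unadjusted p under 0.05 (2227 genes in all) and 4 called by DESeq2 (1007 genes in all). In both cases they were Glul, Cyp2e1, Slc1a2 and Oat. The 4 log2 fold changes were -1.75 for Slc1a2 (adjusted p = 0.0842), -1.52 for Oat (0.184), -1.22 for Glul (0.209) and -0.96 for Cyp2e1 (0.216). Oat was called without DWYG-M replicate 2 (-2.92, adjusted p = 0.006) and was -0.82 without DWYG-M replicate 1. Both DWYG-M values of these 4 genes were below both control values (7.98% of all tested genes), and those of Rhbg and Lect2 were above (49.2%). Tbx3 was at -0.81, Cyp1a2 at -0.48, Lgr5 at -0.30, Axin2 at 0.08 and Lect2 at 0.14, with adjusted p-values of at least 0.389. In DWYG-H livers 1 gene was called against controls, Slc1a2, with a log2 fold change of -2.79 (SE 0.496, adjusted p = 0.0164). Of all genes 7.69% were called in that comparison, 6.59% higher and 1.09% lower. The call for Slc1a2 was lost without any 1 of the 4 libraries: the adjusted p was 0.0972 without DWYG-H replicate 1 (log2 fold change -2.50), 0.0558 without DWYG-H replicate 2 (-3.19), 0.0772 without control replicate 1 (-2.69) and 0.077 without control replicate 2 (-2.92). Glul (-1.75, adjusted p = 0.0676), Cyp2e1 (-1.38, 0.0688) and Oat (-2.00, 0.0729) missed the threshold there. Tbx3 was at -1.20, Cyp1a2 at -0.79, Lgr5 at 0.05, Axin2 at 0.23 and Lect2 at 0.30, with adjusted p-values of at least 0.164. For 6 genes (Glul, Cyp2e1, Cyp1a2, Slc1a2, Oat and Tbx3) both DWYG-H values were below both control values (10.3% of all tested genes), and for Rhbg and Lect2 both were above (46.9%). Rhbg had a log2 fold change of 1.17 in DWYG-M (adjusted p = 0.297) and 1.07 in DWYG-H (adjusted p = 0.287) against the same controls. The DWYG-M value was 0.05 without DWYG-M replicate 2 and 1.80 without replicate 1, and the DWYG-H value was 0.59 without DWYG-H replicate 2 and 1.42 without replicate 1.

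By mean FPKM, Glul, Cyp2e1, Cyp1a2, Slc1a2, Oat and Tbx3 shared an order, lowest in DEN+CCl4, then DWYG-H, then DWYG-M, and highest in control. Neighbouring groups in that order did not differ by edgeR's test for any of the 6. Rhbg was lowest in DEN+CCl4 and highest in DWYG-M, Lect2 was lowest in control and highest in DWYG-H, and the order of Axin2 and Lgr5 lay within the spread of their replicates.

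The 10 profiles over the 8 libraries were compared with each other and with all other genes as the root mean square difference of centred log2 CPM. Within the set, Glul and Cyp2e1 were the closest pair at 0.33, and Glul and Cyp1a2, and Cyp2e1 and Cyp1a2, were both at 0.44. Axin2 was 0.42 from Lect2, 0.43 from Lgr5 and 1.6 from Slc1a2. Its median distance from the genes compared below was 0.42, so it was not particularly near any of them. Among 6942 genes with a mean FPKM of at least 5, predicted genes left out, the nearest to Glul were Ces3b (0.28), Nudt7 (0.29) and Cyp2c54 (0.32), against a median of 1.1. The nearest to Cyp2e1 were Cyp2d9 (0.22), Sdr9c7 (0.24) and Fn3k (0.26), and to Cyp1a2 they were Cyp2c50 (0.20), Mup10 (0.23) and Cyp2c54 (0.25).

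Slc1a2 was nearest to Slco1a1 (0.28), Cyp2c37 (0.40) and Mup22 (0.43), against a median of 1.6, and Rhbg to Nat8 (0.32), Cyp3a59 (0.38) and Bhmt (0.44), against 0.86. Oat was nearest to Lhpp (0.21), Nudt7 (0.42) and Sucnr1 (0.42). Oat and Lhpp lie on chromosome 7 with 1 protein-coding gene between them in GRCm38.p6. Tbx3 was nearest to Paqr7 (0.21), Igfals (0.23) and Cebpa (0.27). Lgr5 was nearest to Ddc (0.17), Fam193b (0.19) and Cdo1 (0.20), Axin2 to Slco1a4 (0.19), Tk1 (0.20) and Pxdc1 (0.23), and Lect2 to Perp (0.091), Commd4 (0.098) and Apof (0.11). All these distances share the same 8 libraries and their scaling. Reads of Cyp2c and Mup genes can be shared out between near-identical copies, which makes their values uncertain.

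The other genes of the pathway were followed by lists. In DEN+CCl4 against control, list counts stand against 15.1% of all tested genes called higher and 7.12% called lower. Of 17 Wnt ligands, R-spondins and genes of ligand secretion, 15 were in the table and 5 were tested in DEN+CCl4 against control. With no filter on low values, edgeR called 3 genes of this list higher and 0 lower, and 3216 genes in all. Among the 5 that passed the filter, Wls, which carries Wnt proteins to the cell surface, was the sole call. It had 7.68 and 5.62 FPKM in DEN+CCl4 livers, 4.54 and 4.29 in DWYG-M, 4.27 and 3.89 in DWYG-H, and 2.52 and 1.72 in controls, and its log2 fold change in DEN+CCl4 against control was 1.38 (SE 0.194, adjusted p = 0.00311). The central vein ligand Wnt2 measured 3.28 and 1.28 FPKM in DEN+CCl4 livers and 3.05 and 2.64 in controls (log2 fold change -0.57, SE 0.358, adjusted p = 0.29). Rspo3 measured 4.48 and 2.43 FPKM in DEN+CCl4 livers and 4.05 and 3.03 in controls (-0.32, SE 0.258, adjusted p = 0.412). The groups overlapped for both ligands. Wnt9b, at 1.01 and 0.34 FPKM in DEN+CCl4 livers and 0.32 and 0.27 in controls, was below the filter and was not tested. Without DEN+CCl4 replicate 1, 1 gene of this list was called lower beside the 1 higher.

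Of 14 Wnt receptors and co-receptors 11 were tested, and edgeR called 0, with 1 at an unadjusted p under 0.05 (Fzd1, 0.72, adjusted p = 0.0643). DESeq2 called 0, and limma called 1 higher on FPKM and 5 higher on TPM. Over all 11606 tested genes limma called 2696 on FPKM, 91.7% of them higher, and 5448 on TPM, 97.5% of them higher. The limma counts of this and the other lists in DEN+CCl4 against control stand against these totals. Of 16 tested members of the beta-catenin destruction complex and its nuclear partners, 2 were lower in DEN+CCl4 against control, Tcf7l2 (-0.62, SE 0.169, adjusted p = 0.0358), the main TCF factor of liver, and Bcl9l (-0.47, SE 0.139, adjusted p = 0.046), a co-activator of beta-catenin. These small changes depended on the setting: limma on TPM called 6 members of this list higher and 0 lower. DESeq2 called 1 lower, and edgeR on only the compared groups called 0. Ctnnb1, the gene of beta-catenin itself, was at 98.5 and 97.6 FPKM in DEN+CCl4 livers and 64.7 and 62.1 in controls, with an edgeR log2 fold change of 0.35 (SE 0.17, adjusted p = 0.181).

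Among 7 tested Wnt inhibitors and feedback genes 2 rose and 1 fell in DEN+CCl4 against control (15.1% and 7.12% of all tested genes). Notum, a secreted enzyme that inactivates Wnt proteins and a Wnt target in liver, had 7.11 and 4.50 FPKM in DEN+CCl4 livers, 9.26 and 14.6 in DWYG-M, 8.07 and 11.8 in DWYG-H, and 14.8 and 12.7 in controls. The DEN+CCl4 values lay below all others, and Notum fell in DEN+CCl4 against control (log2 fold change -1.55, SE 0.277, adjusted p = 0.00779). In DWYG-M against DEN+CCl4 it stood at 1.13 (adjusted p = 0.231) and in DWYG-H against DEN+CCl4 at 0.86 (adjusted p = 0.465). The secreted Wnt antagonist Frzb rose by 1.97 (SE 0.277, adjusted p = 0.00311) and Dkk3, of the Dickkopf family, rose by 2.47 (SE 0.24, adjusted p = 0.000975). Dkk3 had 5.22 and 4.14 FPKM in DEN+CCl4 livers and 0.73 and 0.65 in controls. The feedback gene Nkd1 was at -0.73 (adjusted p = 0.0701).

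Of 8 tested Wnt targets known mainly outside liver zonation, 5 rose in DEN+CCl4 against control and 0 fell. The shares of all tested genes called were 15.1% higher and 7.12% lower. Mmp7, a matrix metalloproteinase, had a log2 fold change of 7.51 (SE 0.559, adjusted p = 0.000446), with 17.1 and 19.6 FPKM in DEN+CCl4 livers against 0.09 in each control. Myc (3.58, adjusted p = 0.0107) and Jun (3.11, adjusted p = 0.0201), both transcription factor genes, and the cell adhesion receptor gene Cd44 (1.13, adjusted p = 0.00453) rose as well. Jun differed widely within the group, at 98.1 and 16.4 FPKM in DEN+CCl4 livers against 3.43 and 6.95 in controls. The list had 2 calls, not 5, without control replicate 1, and also 2 without control replicate 2. DESeq2, and edgeR with no filter, with 2 groups only or with a replicate block, each called 1 gene of the list lower. Sp5, a direct Wnt target, had 0.31 and 0.47 FPKM in DEN+CCl4 livers against 0.97 and 1.95 in controls (log2 fold change -2.16, adjusted p = 0.0525). These genes also respond to signals other than Wnt.

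**Figure D4:**
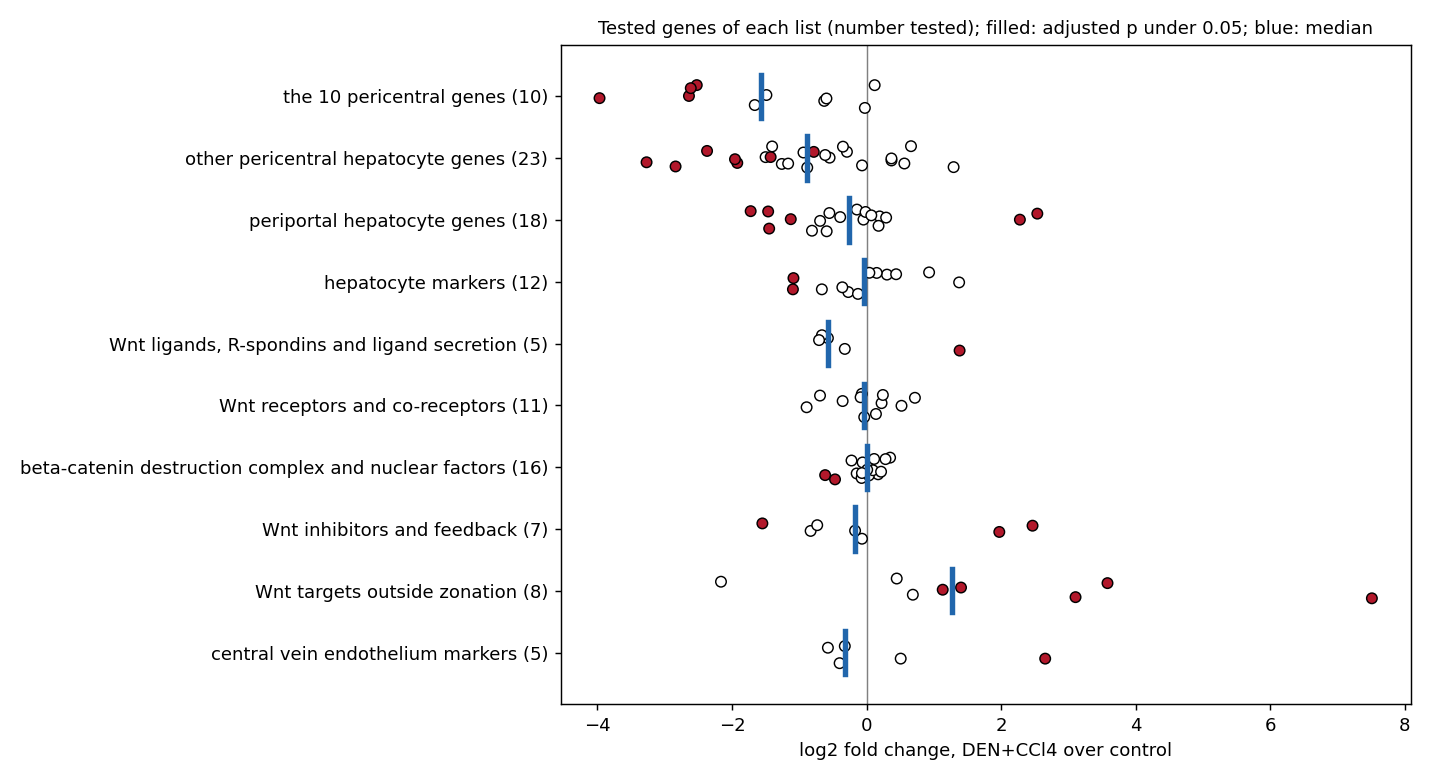
Log2 fold changes of DEN+CCl4 over control (x axis) for the tested genes of each list (rows, number tested in brackets). Filled points passed an adjusted p of 0.05 and blue bars mark list medians, at -1.57 for the 10 pericentral genes and -0.88 for the other pericentral genes.

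Of 23 other pericentral hepatocyte genes tested, 7 fell and 0 rose in DEN+CCl4 against control, with a median of -0.88. The shares of all tested genes called were 7.12% lower and 15.1% higher. The 4 with the smallest p were the P450 genes Cyp2c37 (-3.27, SE 0.602, adjusted p = 0.00879), Cyp2c38 (-2.37, SE 0.563, adjusted p = 0.022) and Cyp2c50 (-1.92, SE 0.487, adjusted p = 0.0274), and the sulfotransferase gene Sult5a1 (-2.84, SE 0.679, adjusted p = 0.0226). Cyp2c37 had 36.5 and 8.08 FPKM in DEN+CCl4 livers against 210.2 and 135 in controls. The count depended on single libraries: 15 were lower without DEN+CCl4 replicate 1, 2 without DEN+CCl4 replicate 2, 1 without control replicate 1 and 1 without control replicate 2. DESeq2 called 13 lower and 1 higher, and edgeR with no filter called 10 lower and 1 higher. The balance also differed in limma, which called 5 lower and 1 higher on FPKM, and 5 lower and 3 higher on TPM. Cyp2a5 was above 0 in edgeR (1.29, adjusted p = 0.0553). In DWYG-H against control 2 of the 23 fell, Cyp2c37 (-2.80, adjusted p = 0.0289) and Cyp2c38 (-3.28, adjusted p = 0.0173), and in DWYG-M against control 0 were called.

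Of 18 periportal genes, 4 fell and 2 rose in DEN+CCl4 against control, with a median of -0.27. The shares of all tested genes called were 7.12% lower and 15.1% higher. Cyp2f2, a periportal P450, fell by 1.72 (adjusted p = 0.0172), Pigr, which transports IgA, fell by 1.46 (adjusted p = 0.0185), and Otc, of the urea cycle, fell by 1.13 (adjusted p = 0.0322). Aldh1b1, an aldehyde dehydrogenase, rose by 2.28 (adjusted p = 0.00471). Without DEN+CCl4 replicate 2 or control replicate 1 the list had 0 genes called lower, and 1 without control replicate 2. The balance also differed in limma, which called 2 higher and 2 lower on FPKM and 5 higher and 1 lower on TPM. Whether pericentral and periportal genes differed in their change was not tested. Among genes of glutamine, glutamate and ornithine handling, Aldh18a1, the first enzyme of proline synthesis from glutamate, rose (2.09, adjusted p = 0.00462). Of the receptor AHR's targets, Cyp1a1 was below the filter and Tiparp was called higher (0.94, adjusted p = 0.0461), which no longer held without DEN+CCl4 replicate 1 or either control library.

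Markers of other cell types moved in the same comparison, in which 15.1% of all tested genes were called higher and 7.12% lower. General hepatocyte markers, 12 tested, fell in 2 cases (Apoa2 and Cebpa) and rose in 0, with 0 called lower when DEN+CCl4 replicate 2 or a control library was left out. The direction depended on the setting: limma called 1 higher and 1 lower on FPKM and 3 higher and 0 lower on TPM, DESeq2 called 1 higher and 3 lower, and edgeR without DEN+CCl4 replicate 1 called 2 higher and 1 lower. Their summed level was 96500 to 155000 FPKM in DEN+CCl4 livers and 84900 to 90500 in controls. Alb alone was at 39625 and 60316 FPKM in DEN+CCl4 livers and 38637 and 29953 in controls. In edgeR the median log2 fold change of this list was -0.043. In FPKM the median of all tested genes itself stood at 0.21, so the sums do not show a rise of hepatocyte markers. Cholangiocyte markers rose in 5 of 5 tested (summed 26.8 to 28.6 FPKM in DEN+CCl4 livers, 2.86 to 4.80 in controls). Stellate cell and myofibroblast markers rose in 7 of 10 (354 to 384, against 109 to 112). Macrophage markers rose in 3 of 8 (168 to 238, against 135 to 169), namely Cd68, Trem2 and Gpnmb. The log2 fold changes of Clec4f (-0.75, adjusted p = 0.0623), Marco (-0.41) and Vsig4 (-0.17) were below 0. Those of Adgre1 (0.30) and Csf1r (0.23) were above 0. DESeq2, and edgeR with no filter or with a replicate block, each called 3 macrophage markers higher and 1 lower. Lymphocyte and neutrophil markers rose in 2 of 4 tested (60.3 to 189, against 9.08 to 18.3). Without DEN+CCl4 replicate 1 the last of these lists had 1 call and 2 macrophage markers were lower, and without control replicate 1 or control replicate 2 it had 0 calls.

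Oncofetal tumour markers rose in 5 of 5 (375 to 876 FPKM in DEN+CCl4 livers, 3.22 to 4.71 in controls), against 15.1% of all tested genes. Endothelial markers were called in 0 of 6 by edgeR, with 3 at an unadjusted p under 0.05, 0 called by DESeq2, and 3 and 4 called higher by limma on FPKM and TPM. Of 5 tested markers of central vein endothelium 1 rose, Thbd (2.65 on the log2 scale, adjusted p = 0.0136), at 11.8 and 3.27 FPKM in DEN+CCl4 livers and 1.17 and 0.75 in controls. It was not called without control replicate 1 or control replicate 2, and without DEN+CCl4 replicate 1 that list also had 1 gene lower. None of the listed markers was at 0 in all 8 libraries. In the DWYG livers the summed stellate markers were 235 to 293 FPKM in DWYG-M and 235 to 251 in DWYG-H, the cholangiocyte markers 7.33 to 9.32 and 5.72 to 10, and the oncofetal markers 230 to 411 and 242 to 357. The part of these cell types in the levels of the pericentral genes was not tested.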

How the data were processed

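Expected counts, FPKM and TPM per gene were deposited by the authors in 1 table, with gene IDs, per the file headers. Reads had been mapped to GRCm39, as the submitters' processing notes list it. Not given in the sources used here are the aligner, the counter, the annotation and whether strand was used. Of the expected counts 89.8% to 91.5% per library were whole within 0.005, which shows that some reads were shared out between genes. The 8 normalized columns and the 16 columns of the authors' group averages were not used.

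Expected counts were rounded and analysed in R 4.3.3 with edgeR 4.0.16 (TMM scaling, quasi-likelihood test, 1 model of the 4 groups over 8 libraries, 4 residual degrees of freedom). Testing was limited to the 11606 of 17164 genes that reached an FPKM of 1 in 2 or more libraries, and p-values were adjusted by Benjamini-Hochberg over all of them at 0.05. All log2 fold changes, standard errors and 95% intervals come from this fit unless another tool is named. The standard error was derived from the test, as the absolute log2 fold change divided by the square root of its F statistic. The intervals use that error and a t distribution with residual plus prior degrees of freedom. Alternatives were DESeq2 1.42.0, limma 3.58.1 on log2(FPKM + 1) and log2(TPM + 1), no filter, only the compared groups, a replicate block, Alb and Mup genes left out, and each library left out in turn. Figures were drawn in Python 3.11.15 with pandas 2.3.3 and matplotlib 3.10.9.

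The 10 genes and all lists were chosen with earlier results of these data known. The rule for naming was all 10 genes, up to 4 genes with the smallest p in each list with a call, and the 3 genes nearest in profile. Wnt9b, Ctnnb1, Fzd1, Sp5, Cyp1a1, Cyp2a5, Marco, Vsig4, Adgre1, Csf1r, Alb and Hsd3b5 fall outside it and were named after their values were seen. Gene IDs matched the RefSeq gene table of GRCm38.p6 for 17052 of 17164 genes, including all 10. That build differs from the authors', so its promoter coordinates were set against no coordinate of theirs. With 2 libraries a group, p-values rest on a spread shared across groups and genes. For the list of glutamine, glutamate and ornithine handling, 1 result is not reported here.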

Additional observations from a re-analysis of the deposited data

How the results depend on the processing

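The 4 calls in DEN+CCl4 against control (Glul, Cyp2e1, Slc1a2 and Oat) were kept under all 7 other settings. Over all members and comparisons, 385 values under the other settings kept direction and side of the threshold, 28 passed it newly, 0 lost it and 7 turned sign. The 7 were Lect2 in DEN+CCl4 against control (0.23 in FPKM, 0.56 in TPM), Rhbg there (0.02 in TPM) and in DWYG-H against DWYG-M (0.04 in FPKM, 0.06 in TPM), Axin2 in DWYG-M against DEN+CCl4 (0.01 with no filter) and Lgr5 in DWYG-M against control (0.12 in TPM). Members called in DWYG-M against DEN+CCl4 were 4 with DESeq2, and in DWYG-H against DEN+CCl4 1 with DESeq2. Against control, DWYG-M had 4 with DESeq2 and 1 each with no filter, TPM and 2 groups only, and DWYG-H had 4 with DESeq2, 4 with no filter, 2 in TPM, 5 with 2 groups only and 2 with the replicate block. Genes called in DEN+CCl4 against control were 5448 in TPM and 1669 with 2 groups only. In DWYG-M against DEN+CCl4 they were 206 with DESeq2, 2 in FPKM, 2 in TPM and 0 with the replicate block, and in DWYG-H against DEN+CCl4 120 with DESeq2, 4 with no filter, 3 in FPKM and 1 in TPM. In DWYG-H against DWYG-M they were 5 with DESeq2, in DWYG-M against control 1007 with DESeq2 and 2820 in TPM, and in DWYG-H against control 1385 with DESeq2 and 3369 in TPM. The cause was not tested. Of the genes called in DEN+CCl4 against control 68% were higher, against 91.7% in FPKM, 97.5% in TPM and 80.5% with 2 groups only, and in TPM the share was 98.1% against 87.8% in DWYG-M and 98% against 85.8% in DWYG-H against control. With each library left out, members called ranged from 3 to 5 in DEN+CCl4 against control, from 0 to 1 in DWYG-M against DEN+CCl4 and in DWYG-M against control, and were 0 in DWYG-H against control. Genes called then ranged from 812 to 2845 in DEN+CCl4 against control, 1 to 29 in DWYG-M against DEN+CCl4, 0 to 17 in DWYG-H against DEN+CCl4, 0 to 2 in DWYG-H against DWYG-M, 39 to 430 in DWYG-M against control and 77 to 423 in DWYG-H against control. Signs turned within these ranges. In DEN+CCl4 against control they were -0.39 to 0.50 for Axin2 and -0.14 to 0.10 for Lect2. In DWYG-M against DEN+CCl4 they were -0.57 to 0.48 for Axin2, -0.17 to 1.12 for Lgr5, -0.31 to 1.79 for Oat and -0.16 to 1.26 for Tbx3, and in DWYG-H against DEN+CCl4 -0.13 to 0.87 for Tbx3 and -0.27 to 0.64 for Axin2. In DWYG-H against DWYG-M they were -0.23 to 0.69 for Axin2, -1.01 to 0.17 for Cyp1a2, -1.17 to 0.92 for Oat, -0.73 to 1.02 for Rhbg, -0.91 to 0.45 for Tbx3, -0.08 to 0.37 for Lect2 and -0.07 to 0.66 for Lgr5. Against control, Axin2 ranged from -0.45 to 0.46 in DWYG-M and from -0.10 to 0.49 in DWYG-H, and Lgr5 from -0.36 to 0.35 in DWYG-H. A lone library left in a group is assumed to vary like the others. Same-numbered libraries of different groups deviated together at -0.14 to 0.26, so the numbers were not taken to pair animals, and the replicate block changed no member's call other than Tbx3's, which it called in DEN+CCl4 and in DWYG-H against control. With 58 to 368 reads for Rhbg, 63 to 218 for Lgr5 and 101 to 216 for Axin2, few reads lay behind the values of these 3 genes.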
